A study of Mus musculus with 4 samples.

Results

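The endothelial marker genes are Pecam1, Cdh5, Kdr, Flt1, Tek, Tie1, Eng, Emcn, Vwf and Cldn5, a list of 10 genes chosen by name as a readout of the vascular content of fetal brown adipose tissue (BAT). All 10 were found through their Ensembl identifiers among the 22298 genes of the count table. Fetal BAT of C57BL/6 mice (C57BL/6J in the methods) was collected at E18.5, the end of gestation, and 4 RNA-seq libraries were made, 2 for each group. The control group came from dams that drank sterilized tap water, and the fructose group from dams that drank 20% (w/v) fructose water from the finding of a vaginal plug. The labels of all 4 libraries give the fetuses as male (by PCR, according to the methods), and the number of fetuses or litters behind a library is not given in the sources used here, so that p-values measure only the spread between these libraries.

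Endothelial cells line all blood vessels, and BAT is among the most densely vascularised tissues, since its vessels bring oxygen and fuel to the brown adipocytes and carry the heat away. Growth of these vessels is driven by vascular endothelial growth factor (VEGF) from the parenchyma acting on endothelial receptors, while angiopoietins and their Tie receptors hold vessels in a quiescent or an unstable state. The listed genes encode the receptors of these pathways (Kdr, Flt1, Tek, Tie1 and Eng), proteins that join endothelial cells to each other (Cdh5, Cldn5 and Pecam1), a surface sialomucin of capillaries and veins (Emcn) and a clotting glycoprotein stored in endothelial cells (Vwf). In RNA from a whole tissue, fewer endothelial cells and less RNA per endothelial cell cannot be told apart.

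Total counts per library were between 18542897 and 23645147, and 12888 genes passed the filter on low counts and were tested. Levels are in CPM, counts scaled to the library total with the TMM factors of edgeR. Mitochondrial genes took 5.89 and 6.49% of counts in control and 10.8 and 11.2% in fructose libraries. Summed over 4 genes of chromosome Y (Uty, Kdm5d, Ddx3y, Eif2s3y), control libraries 1 and 2 held 422 and 390 counts and both fructose libraries 0, which at 3 counts allows up to 0.133 and 0.123 CPM in fructose libraries 1 and 2. Both fructose libraries therefore go against their label in this respect, and since no fructose library is free of it, sex and maternal fructose cannot be told apart in any comparison. None of the 10 genes lies on chromosome X or Y. Across 12884 tested genes the log2 fold change rose with the exonic length (Spearman's rho 0.46, across genes, which are not independent replicates) and fell with the GC content (rho -0.50). Values with these trends removed from each library are given beside the calls named below.

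Compared per kilobase of exonic length (RPKM, computed from the CPM values), the levels of the 10 genes spanned a wide range. Cldn5, which encodes the tight junction protein claudin-5, had the highest level in every library, between 138 and 241 RPKM. Cdh5, encoding VE-cadherin of the adherens junctions, followed at 108 to 118 RPKM. Eng (45.6 to 56.5 RPKM), Pecam1 (42.4 to 51.9 RPKM) and Tie1 (38.5 to 44.3 RPKM) came next. The ranges of neighbours among these 3 genes overlapped across libraries, but within every library Eng was above Pecam1 and Pecam1 above Tie1. Kdr was at 22.2 to 26.7 RPKM and Tek at 6.80 to 9.01 RPKM. Emcn (4.11 to 4.49 RPKM) and Flt1 (3.28 to 5.01 RPKM) overlapped across libraries. Emcn was above Flt1 in both control libraries and below it in both fructose libraries. Vwf was lowest with a mean of 1.72 RPKM. Cldn5 and Cdh5 held 38.3% and 23.6% of the summed RPKM of the 10 genes. With the longest annotated transcript as the length, these shares were 32.8% and 21.2%, and Pecam1 (15.4%) passed Eng (10.6%) and Flt1 (1.41%) passed Emcn (1.18%). All of the genes were well counted, from 438 counts of Emcn in control library 2 to 11672 counts of Cdh5 in fructose library 2.

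Promoter sequences from RefSeq (GRCm38.p6, 250 bases before to 50 bases after the start of the gene) were matched for 7 of the 10 genes, and 3 are shown, those of the 2 genes that passed the test below and of Kdr, the receptor paired with Flt1. They lie at chr5:147725962-147726261, minus strand (Flt1), chr5:75978406-75978705, minus strand (Kdr) and chr16:18776597-18776896, plus strand (Cldn5), and are written 5′ to 3′ on the strand of the gene. Capitals mark AGGAAG or CGGAAG, or their reverse complements, which are forms of the core bound by ETS factors such as Erg and Fli1.
Flt1: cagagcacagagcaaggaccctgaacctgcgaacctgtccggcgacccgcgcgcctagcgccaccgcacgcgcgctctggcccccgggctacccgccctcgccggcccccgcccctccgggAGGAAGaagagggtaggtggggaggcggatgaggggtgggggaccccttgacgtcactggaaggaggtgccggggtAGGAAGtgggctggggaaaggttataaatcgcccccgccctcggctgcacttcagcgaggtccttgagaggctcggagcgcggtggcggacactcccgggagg
Kdr: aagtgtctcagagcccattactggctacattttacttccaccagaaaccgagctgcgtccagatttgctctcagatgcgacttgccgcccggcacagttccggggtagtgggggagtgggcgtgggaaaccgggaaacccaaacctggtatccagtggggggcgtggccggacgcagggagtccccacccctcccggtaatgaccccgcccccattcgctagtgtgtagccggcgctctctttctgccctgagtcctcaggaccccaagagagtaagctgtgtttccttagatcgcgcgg
Cldn5: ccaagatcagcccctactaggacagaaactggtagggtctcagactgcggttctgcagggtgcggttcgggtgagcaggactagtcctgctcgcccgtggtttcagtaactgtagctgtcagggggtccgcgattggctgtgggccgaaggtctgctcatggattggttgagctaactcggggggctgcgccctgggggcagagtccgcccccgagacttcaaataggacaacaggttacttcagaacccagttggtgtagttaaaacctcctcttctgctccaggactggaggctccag
Flt1 had 2 copies of AGGAAG and also holds TATAAA, while neither ETS form was found in these windows of Kdr or Cldn5. Of the 7 matched promoters, 4 (Flt1, Tie1, Eng and Emcn) had at least 1 ETS form on either strand, against 46.5% of the 32851 RefSeq promoters of the same length. AGATAA, bound by GATA factors, was found in 1 (Tek) and 11.2% of all promoters, ATTGTT, bound by SOX factors, in 2 (Tek and Emcn) and 10.7%, and TATAAA in 1 and 13.6%. The GC content of the shown promoters was 70.7% (Flt1), 60.7% (Kdr) and 58.3% (Cldn5), where the median over all promoters was 52.7%. A match of letters is a description and not a bound site.

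The junction proteins of endothelial cells did not move alike. Cldn5 (ENSMUSG00000041378, chromosome 16, 18776847 to 18778262 of GRCm38, as for all genes here), a gene with a single exon and the shortest of the list at 1416 bases, was at 341 and 269 CPM in control libraries 1 and 2 and at 196 and 232 CPM in fructose libraries 1 and 2. Both fructose libraries were below both control libraries, and control library 1 stood highest. Cldn5 fell by 29.9% (95% interval -41.3 to -16.3%), a log2 fold change of -0.51 ± 0.12 (SE). The quasi-likelihood test of edgeR, adjusted over all tested genes by Benjamini-Hochberg as for every adjusted value here, gave an adjusted p = 0.0087. With the length trend removed the value was -0.28 (edgeR adjusted p = 0.097), with the GC trend removed -0.29 (edgeR adjusted p = 0.11) and with both removed -0.11 (edgeR adjusted p = 0.61), so that the call was lost in each of these fits. Without control replicate 1, the highest library, the value was -0.33 and still called (edgeR adjusted p = 0.0032).
Cdh5 (ENSMUSG00000031871, chromosome 8, 104101625 to 104144511) was at 470.4 and 497 CPM in control and 455 and 477 CPM in fructose. The libraries of the 2 groups overlapped, and the log2 fold change of -0.06 (95% interval -0.24 to 0.13, edgeR adjusted p = 0.66) stood for changes of -15.1 to 9.13%. Pecam1 (ENSMUSG00000020717, chromosome 11, 106654217 to 106750628), the adhesion molecule CD31 that leukocytes and platelets also carry, was at 314 and 323 CPM in control and 264 and 287 CPM in fructose. Its fructose libraries were both below the control libraries, at a log2 fold change of -0.21 ± 0.08 (SE, edgeR adjusted p = 0.083) that did not pass the test. With both trends removed, Pecam1 was at -0.29 and passed it (edgeR adjusted p = 0.042), but not with the replicate block in the same fit (edgeR adjusted p = 0.050).

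**Figure D1:**
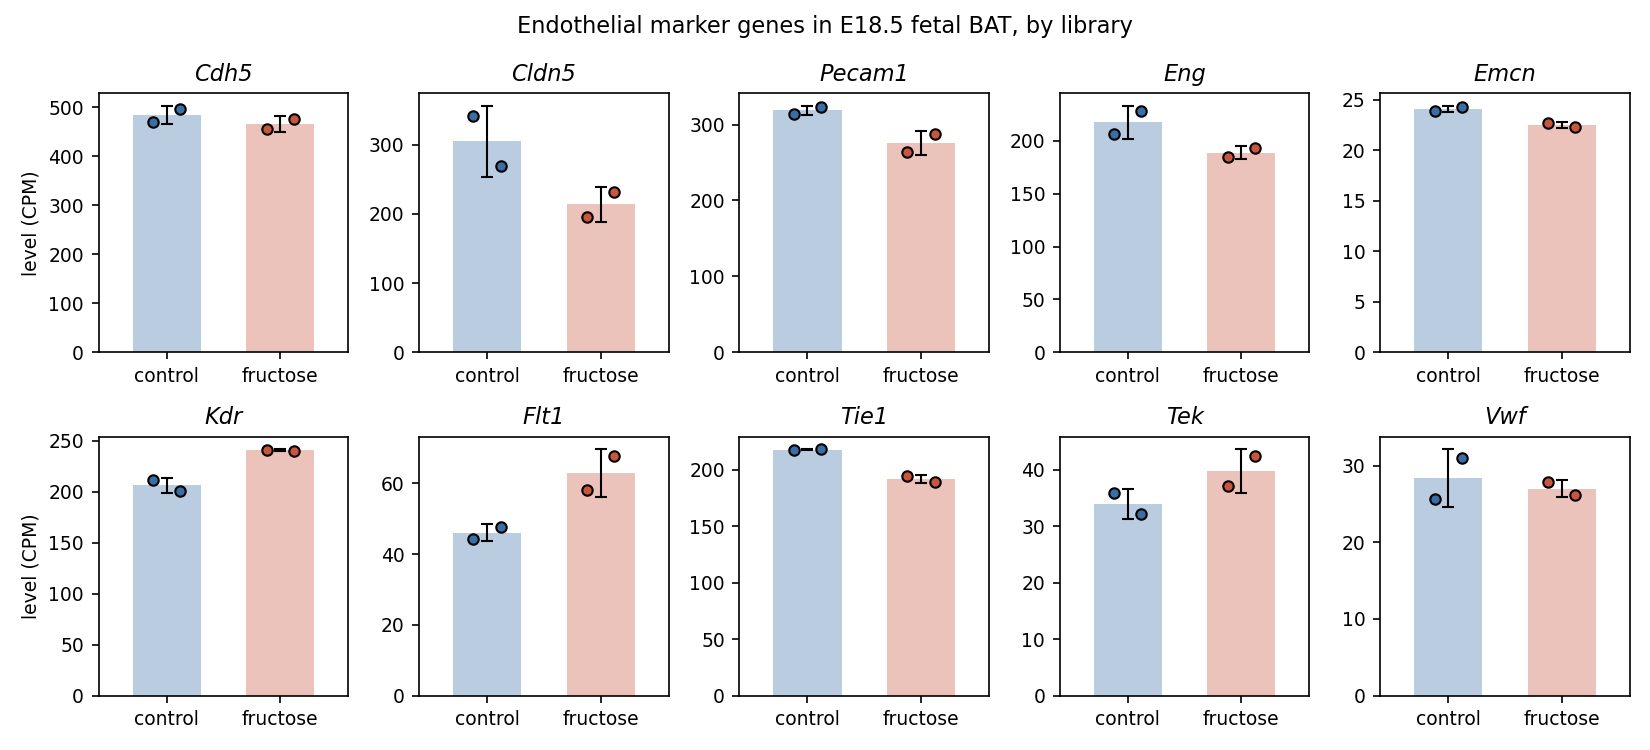
Level of each endothelial marker gene in CPM (vertical axes from 0, a scale of its own for each gene) in control and fructose fetal BAT. Points are libraries, bars the mean and error bars the SD (n = 2 libraries each). The fructose libraries lie above both control libraries for Kdr, Flt1 and Tek, below them for Cldn5, Pecam1, Eng, Emcn and Tie1, and overlap them for Cdh5 and Vwf.

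Both VEGF receptors were higher in the fructose libraries, and Flt1 passed the test. Flt1 (ENSMUSG00000029648, chromosome 5, 147561604 to 147726011) encodes VEGFR1, which binds VEGF tightly with little kinase output and, as a shorter secreted isoform, traps the ligand. Its level was 44.3 and 47.8 CPM in control libraries 1 and 2 and 58.0 and 67.6 CPM in fructose libraries 1 and 2. Both fructose libraries were above both control libraries, and fructose library 2 stood highest. Flt1 rose by 36.5% (95% interval 17.7 to 58.3%), a log2 fold change of 0.45 ± 0.10 (SE, edgeR adjusted p = 0.0070). The value was 0.34 and not called without fructose replicate 2 (edgeR adjusted p = 0.079). It was 0.02 with the length trend removed (edgeR adjusted p = 0.92), 0.46 with the GC trend removed (edgeR adjusted p = 0.0096) and 0.07 with both removed (edgeR adjusted p = 0.71). The table holds counts per gene, so the membrane-bound and the secreted isoform of Flt1 were not separated.
Kdr (ENSMUSG00000062960, chromosome 5, 75932827 to 75978458) encodes VEGFR2, the main signalling receptor for VEGF-A in endothelial cells. It was at 211 and 201 CPM in control and 241 and 240.2 CPM in fructose. The groups did not overlap, and the log2 fold change of 0.22 ± 0.08 (SE, 95% interval 0.05 to 0.40) did not pass the adjusted threshold (edgeR adjusted p = 0.058). It was -0.03 with the length trend removed and -0.01 with both trends removed. Within a library, the ratio of Flt1 to Kdr counts was 0.209 and 0.238 in control and 0.240 and 0.281 in fructose. It was taken without removal of the length and GC trends. The lowest fructose ratio lay just above the highest control ratio, and a difference of 0.22 on the log2 scale separated the group means, for which an exact two-sided permutation test of 2 against 2 libraries cannot give a p below 0.333.

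**Figure D2:**
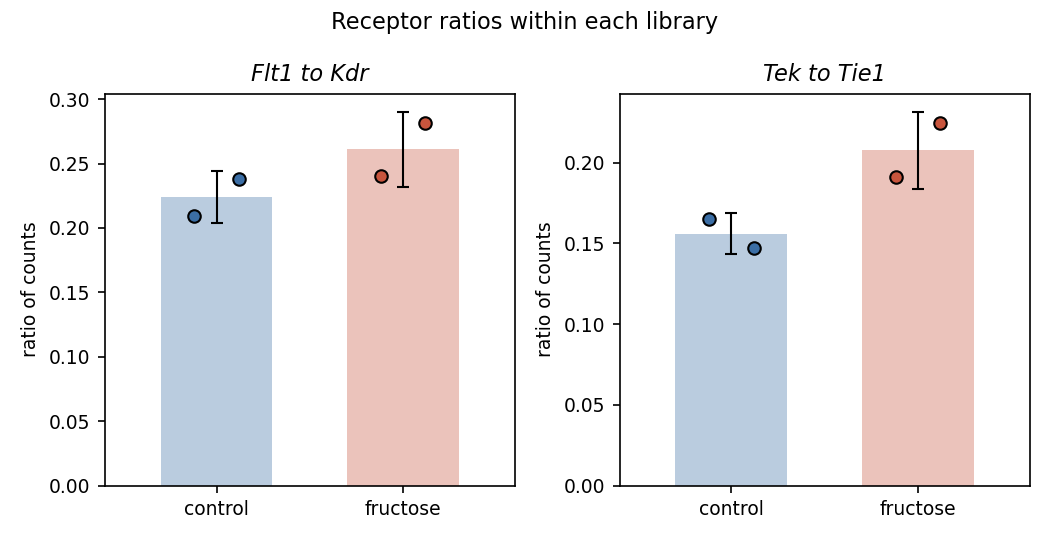
Ratio of Flt1 to Kdr counts and of Tek to Tie1 counts within each library (vertical axes from 0). Points are libraries, bars the mean and error bars the SD (n = 2 libraries each). Both ratios are higher in the fructose libraries than in the control libraries, with the smaller gap between groups for Flt1 to Kdr (0.238 against 0.240). No length or GC trend was removed from the counts.

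The Tie receptors lay on opposite sides of 0. Tek (ENSMUSG00000006386, chromosome 4, 94739289 to 94874976), the angiopoietin receptor TIE2, was at 35.8 and 32.1 CPM in control and 37.1 and 42.5 CPM in fructose. Tie1 (ENSMUSG00000033191, chromosome 4, 118471191 to 118490061), a related receptor that modulates TIE2, was at 217 and 218 CPM in control and 194 and 189 CPM in fructose. Neither gene's groups overlapped, Tek being higher and Tie1 lower in both fructose libraries. Neither passed the test, with a log2 fold change of 0.23 ± 0.10 for Tek (SE, edgeR adjusted p = 0.13) and -0.18 ± 0.08 for Tie1 (SE, edgeR adjusted p = 0.11). With both trends removed the values were 0.15 and -0.08. The ratio of Tek to Tie1 counts, likewise taken without removal of the trends, was 0.165 and 0.147 in control libraries and 0.191 and 0.224 in fructose libraries. It was thus higher in both fructose libraries, by 0.41 on the log2 scale.
Eng (ENSMUSG00000026814, chromosome 2, 32646595 to 32682669) encodes endoglin, a co-receptor for the BMP ligands of the receptor ALK1 that mesenchymal cells and macrophages can also express. It was at 207 and 229 CPM in control and 184 and 193 CPM in fructose, lower in both fructose libraries. Its log2 fold change of -0.20 ± 0.09 (SE, edgeR adjusted p = 0.097) did not pass the test and was -0.05 with both trends removed. An exonic stretch of 61 bases is shared with Fpgs on the opposite strand, and reads there cannot be assigned without the strand.

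Emcn (ENSMUSG00000054690, chromosome 3, 137341067 to 137432185) was at 23.9 and 24.3 CPM in control and 22.7 and 22.3 CPM in fructose. The fructose libraries were lower by a small margin, at a log2 fold change of -0.10 (95% interval -0.33 to 0.13, edgeR adjusted p = 0.53). Emcn has the lowest GC content of the list (40.7%), and with the GC trend removed it was at -0.57 (edgeR adjusted p = 0.0062), with both trends removed at -0.52 (edgeR adjusted p = 0.012).
Vwf (ENSMUSG00000001930, chromosome 6, 125546774 to 125686679), which megakaryocytes also make, was at 25.7 and 31.0 CPM in control and 27.8 and 26.2 CPM in fructose. The control libraries enclosed the fructose libraries, and the log2 fold change was -0.07 (95% interval -0.32 to 0.18, edgeR adjusted p = 0.69). Vwf has the longest exonic length (16064 bases) and was at -0.57 with the length trend removed (edgeR adjusted p = 0.0066) and -0.44 with both removed (edgeR adjusted p = 0.033).

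Of the 10 genes, Flt1 was called higher and Cldn5 lower at an adjusted p-value under 0.05, and 8 were not called. Over all 12888 tested genes, 26.2% were called at this threshold (15.5% higher and 10.7% lower), so that 2 of 10 is near the background. Flt1 and Cldn5 also met the thresholds used by the study (a fold change beyond 1.3 at p under 0.05, unadjusted), as did 23.8% of all tested genes, 17.6% higher and 6.18% lower. The thresholds were applied here to the edgeR values, whereas the study applied them to those of DESeq2. At an unadjusted p-value under 0.05 alone, 7 of the 10 differed, Flt1, Kdr and Tek being higher and Cldn5, Pecam1, Eng and Tie1 lower, where 39.3% of all tested genes did. The fructose libraries did not overlap the control libraries for 8 genes, above them for 3 and below them for 5, against 65.1% of all tested genes (33.4% above and 31.6% below). The median log2 fold change was -0.08 (range -0.51 to 0.45), where that of all tested genes was 0.0025. The summed level of the 10 genes was 1891 and 1872 CPM in control and 1680.2 and 1777 CPM in fructose. Their geometric mean, which gives each gene the same weight, was 117 and 117 CPM in control and 111 and 117 CPM in fructose, so that fructose library 1 was lowest and fructose library 2 lay between the control libraries.

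**Figure D3:**
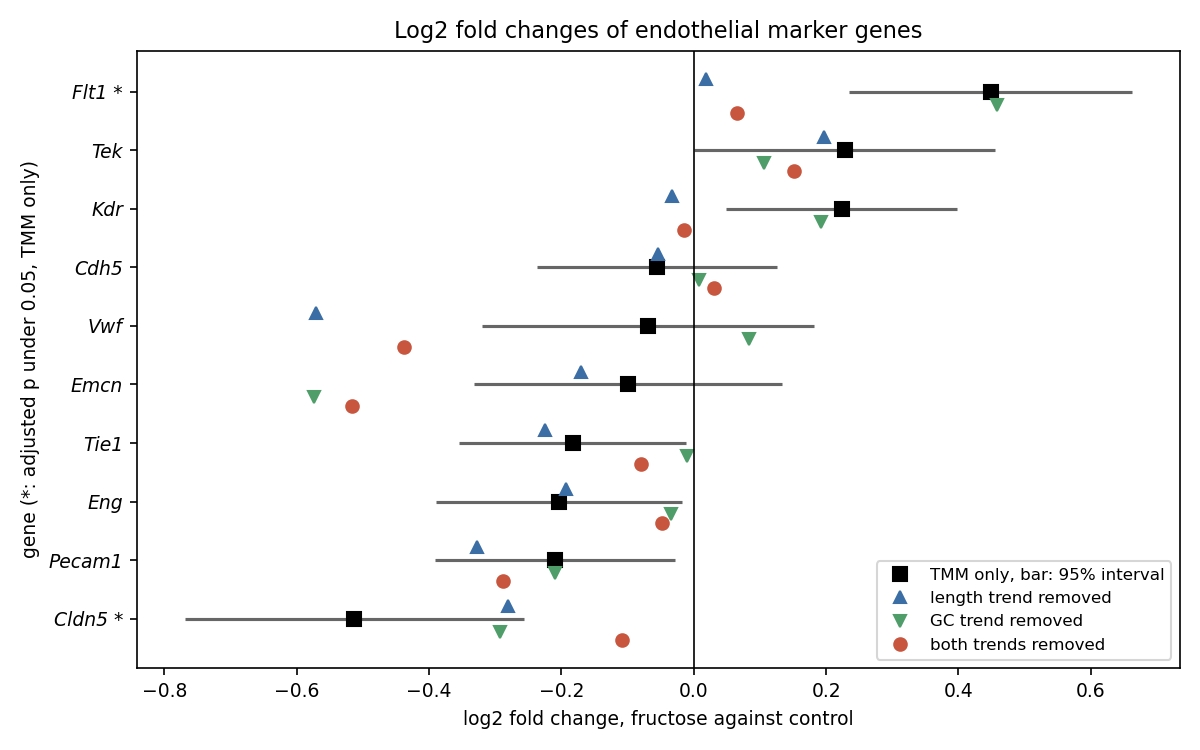
Log2 fold change, fructose against control, of each endothelial marker gene. Black squares with bars are edgeR values with their 95% interval after TMM scaling (n = 2 libraries each), and coloured marks are the values with the length trend, the GC trend or both removed. Flt1 and Cldn5, the called genes, move from 0.45 to 0.07 and from -0.51 to -0.11 with both trends removed, while Emcn and Vwf move to -0.52 and -0.44.

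The genes called within the list thus depended on the 2 trends. Removing both left neither Flt1 nor Cldn5 called, and instead Pecam1, Emcn and Vwf were called lower, 3 of 10 genes against 12% of all tested genes in that fit. Flt1 (13504 bases) and Cldn5 (1416 bases) were near the long and the short end of the list in exonic length, and Cldn5 also had the highest GC content (60.5%). With the longest transcript as the length, an alternative chosen after seeing the data, removal of both trends gave 0.16 for Flt1, -0.12 for Cldn5 and -0.48 for Emcn, and of the 10 genes 1 was called. Cdh5 was between -0.12 and 0.03 in all 18 alternative fits and was called in none.

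**Figure D4:**
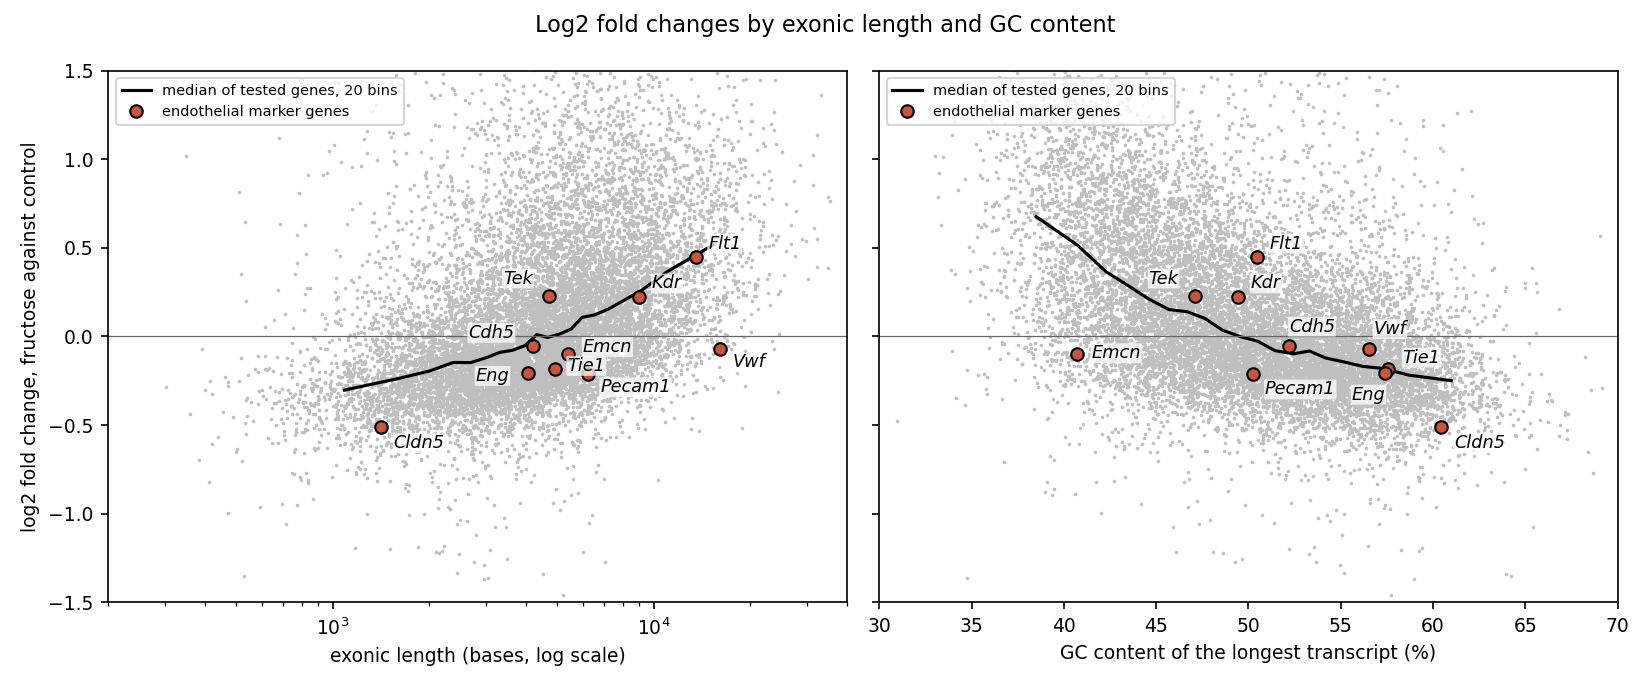
Log2 fold change of tested genes (grey points, values beyond the vertical axis not drawn) against exonic length in bases (left, log axis) and GC content in percent (right), with the endothelial marker genes in red. The black line is the median of tested genes in bins of equal size. It rises with length and falls with GC content; Flt1 and Cldn5 lie towards the long and the short end on the left, and Vwf, at 16064 bases, lies below the line.

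Other genes of the vascular pathways were taken from 10 lists of 99 genes, of which 90 were tested, 15 were called higher and 11 lower. This is 28.9% of those tested, near the background of 26.2%. Over all tested genes 15.5% were called higher and 10.7% lower, the background for the count of each list below. Among VEGF ligands and other VEGF receptors, 3 of 8 genes were called, all higher. Vegfa, the main ligand of KDR and FLT1, rose from 160.5 and 155 CPM in control to 226 and 254 CPM in fructose, a log2 fold change of 0.60 ± 0.09 (SE, edgeR adjusted p = 0.00092) that was 0.66 with both trends removed (edgeR adjusted p = 0.00080). The co-receptors Nrp1 (0.49, edgeR adjusted p = 0.0031) and Nrp2 (0.24, edgeR adjusted p = 0.041) were called as well, but were at -0.08 and -0.07 with both trends removed. Vegfb, a ligand of FLT1, was at -0.26 (edgeR adjusted p = 0.053), and at 0.13 with both trends removed. Of 3 tested genes of the angiopoietin list, Angpt1, the activating ligand of TIE2, rose by 1.06 ± 0.24 (SE, edgeR adjusted p = 0.0090) and Ptprb, the phosphatase that restrains TIE2, by 0.71 ± 0.10 (SE, edgeR adjusted p = 0.00066) on the log2 scale. With both trends removed neither was called (0.59 and 0.25). Angpt2 was at 0.16 (edgeR adjusted p = 0.52).
In the list of endoglin and ALK1 signalling, 2 of 9 tested genes were called, both higher. Smad5, which carries BMP signals to the nucleus, was near the threshold at 0.31 (edgeR adjusted p = 0.049), and was at -0.015 with both trends removed (edgeR adjusted p = 0.94). Bmpr2, a type II receptor of the pathway, rose by 1.34 ± 0.14 on the log2 scale (SE, edgeR adjusted p = 0.00020) and was at 0.46 with both trends removed (edgeR adjusted p = 0.044). Id1, a target gene of BMP receptors, was at -0.07 (edgeR adjusted p = 0.55), and at 0.29 with both trends removed (edgeR adjusted p = 0.037). The ligands Gdf2 and Bmp10 had 0 counts in every library. Of the regulators of hypoxia responses, 2 of 8 were called higher and 1 lower. Hif1a rose from 12.04 and 9.26 CPM in control to 24.6 and 23.6 CPM in fructose, a log2 fold change of 1.18 ± 0.14 (SE, edgeR adjusted p = 0.00039), and Epas1, which encodes HIF-2α and is abundant in endothelium, rose by 0.33 ± 0.08 (SE, edgeR adjusted p = 0.013). Both were still called with both trends removed, at 0.77 and 0.34, whereas the call of the prolyl hydroxylase Egln2 (-0.37, edgeR adjusted p = 0.012) was lost at -0.09.

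Of 23 other pan-endothelial genes, 3 were called higher and 5 lower, where 15.5% and 10.7% of all tested genes were. The median log2 fold change of the 23 genes was -0.0027. The 5 lower genes were Egfl7 (-0.26), Esam (-0.28), Icam2 (-0.39), Ramp2 (-0.28) and Plvap (-0.28), and none of them was called with both trends removed (range -0.11 to 0.06). Cd93, a receptor of the endothelial surface, was called higher at 0.34 (edgeR adjusted p = 0.0089). The other two called higher, Calcrl (1.15) and Adgrl4 (0.57), are named because they complete the count and were chosen after their values were seen. None of these 3 was called with both trends removed, where instead Cd34, likewise chosen after its value was seen, was called lower (-0.32, edgeR adjusted p = 0.028). Among 13 endothelial transcription factors, 2 were called, both higher, where 15.5% of all tested genes were called higher. The other 11 were not called, and of the 13 genes 8 lay above 0 and 5 below. Sox18, Klf2 and Sox7, those with the highest level per length, were at -0.19, -0.40 and 0.16. With both trends removed they were at 0.18, -0.05 and 0.29, again not called. The called genes were Erg, which rose by 0.75 ± 0.15 (SE, edgeR adjusted p = 0.0038), and Ets1, by 0.46 ± 0.10 (SE, edgeR adjusted p = 0.0076), on the log2 scale. Erg was at 0.86 with both trends removed (edgeR adjusted p = 0.0024), while Ets1 was at 0.19 and no longer called (edgeR adjusted p = 0.27). Efnb2, an arterial ephrin, was the 1 gene called of 12 tested arterial and Notch genes, at 0.57 ± 0.11 (SE, edgeR adjusted p = 0.0043) and 0.47 with both trends removed (edgeR adjusted p = 0.018). Sema3g, an arterial semaphorin, was at 0.26 (edgeR adjusted p = 0.056), and was called with both trends removed (0.37, edgeR adjusted p = 0.023). The Notch ligand Dll4 was at -0.32 (edgeR adjusted p = 0.062), and none of the 5 venous genes was called.
Capillary and tip cell genes had a median of -0.32, and 5 of 6 tested were called lower, where 10.7% of all tested genes were. Gpihbp1, which anchors lipoprotein lipase on capillaries, fell from 197 and 191 CPM in control to 139.8 and 150.3 CPM in fructose, a log2 fold change of -0.42 ± 0.08 (SE, edgeR adjusted p = 0.0040). The water channel Aqp1, which red blood cells also carry, was at -0.33 (edgeR adjusted p = 0.016), Rgcc at -0.30 (edgeR adjusted p = 0.017) and the carbonic anhydrase Car4 at -0.29 (edgeR adjusted p = 0.019). With both trends removed none of these 4 was called, at values between -0.19 and 0.10. The fifth, the lipid transporter Mfsd2a, had no more than 13 counts in any library and was at -2.09 (edgeR adjusted p = 0.030), or -1.84 and not called with both trends removed (edgeR adjusted p = 0.081). The count of called capillary and tip cell genes also fell from 5 to 1 without fructose replicate 1 and to 1 without fructose replicate 2. That of the pan-endothelial genes fell from 8 to 5 without control replicate 2, to 4 without fructose replicate 1 and to 1 without fructose replicate 2. The number of genes called over the whole table also changed in these fits, as given below. Of 6 lymphatic genes 3 were tested and none was called, Lyve1, a hyaluronan receptor, having 57 to 138 counts per library, while Prox1, Mmrn1 and Ccl21a were too low to test.

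**Figure D5:**
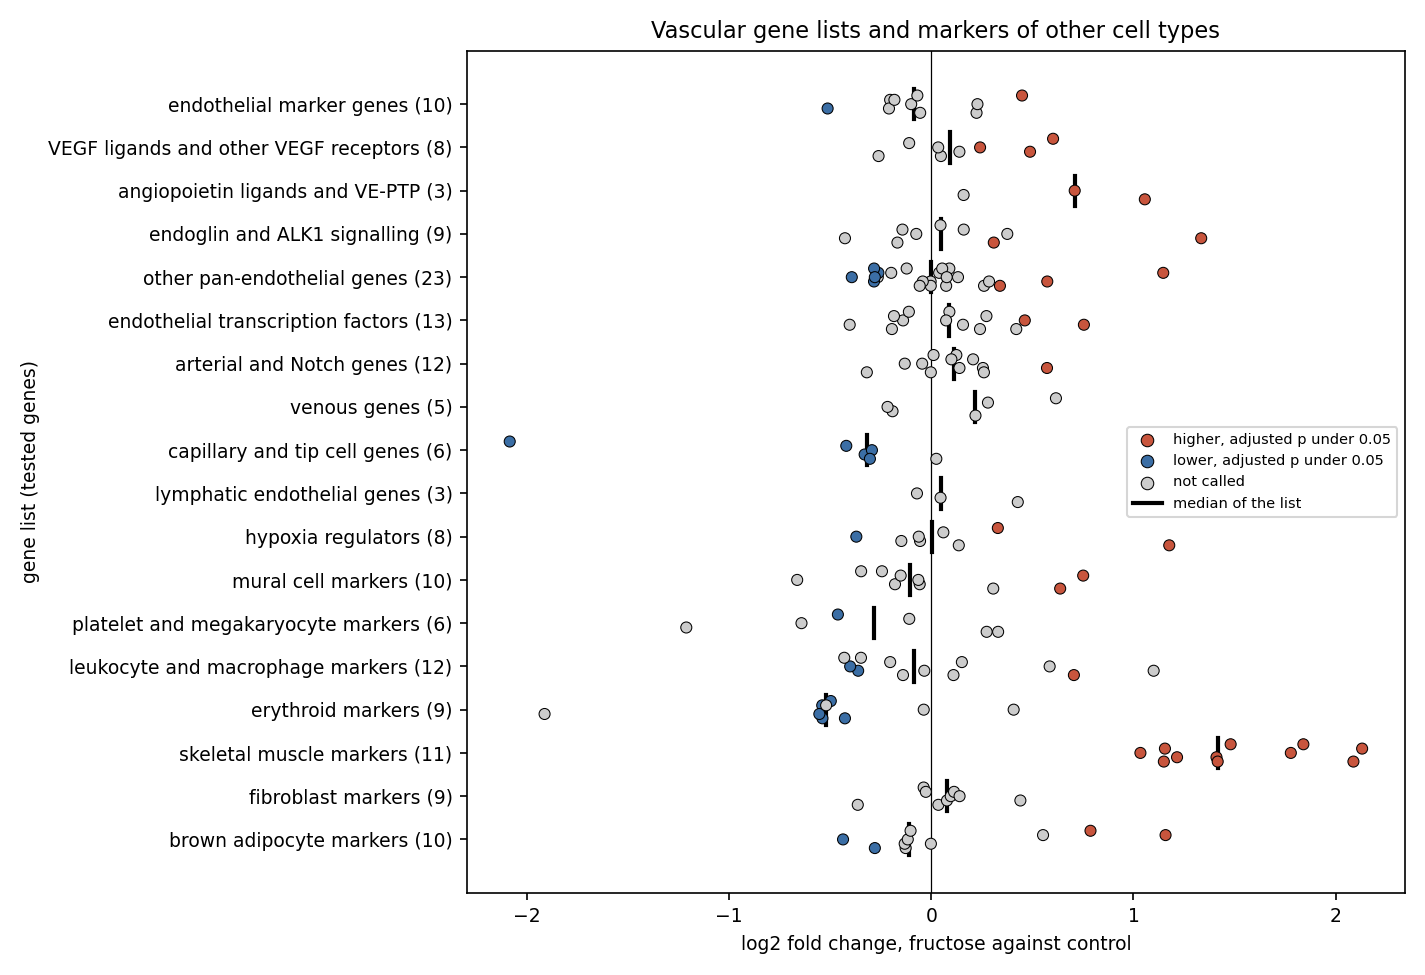
Log2 fold change, fructose against control, of every tested gene of the endothelial marker list, 10 vascular lists and 7 lists of markers of other cell types (points; number of tested genes in brackets), with the median of each list as a bar. The medians of the endothelial marker and pan-endothelial lists lie at -0.08 and -0.0027, that of skeletal muscle markers at 1.42 and that of erythroid markers at -0.52.

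Markers of some other cell types moved between the groups, and the part of other cell types in the values above was not tested. All 11 skeletal muscle markers were called higher, where 15.5% of all tested genes were. Their summed level was 186 and 261 CPM in control and 646 and 467 CPM in fructose. Of 9 erythroid markers found, 5 were called lower, where 10.7% of all tested genes were. Among the 5 were the globin genes Hbb-bs and Hba-a1 (log2 fold changes of -0.54 each, Hba-a1 sharing nearly all its sequence with Hba-a2). The summed level of the erythroid markers went from 19213 and 15301 CPM in control to 11772 and 12147 CPM in fructose. With both trends removed 10 of the 11 muscle markers but none of the erythroid markers were called. Mural cell markers, of the pericytes and smooth muscle cells that wrap the vessels, summed to between 541 and 564 CPM in the 4 libraries. Of the 10 markers 7 lay below 0 and 3 above, with a median log2 fold change of -0.11. Only 2 of 10 were called, both higher, where 15.5% of all tested genes were called higher. These were Rgs5 (0.75) and Abcc9 (0.64), which were also called with both trends removed (0.41 and 0.34). In that fit Cspg4, named after its value was seen, was called lower (-0.36). Platelet and megakaryocyte markers, a further source of Pecam1 and Vwf, summed to 33.8 and 28.6 CPM in control and 24.5 and 23.5 CPM in fructose, where Pf4 was called lower (-0.46, edgeR adjusted p = 0.029) but not with both trends removed (-0.10, edgeR adjusted p = 0.67), without control replicate 1 or without fructose replicate 2, 4 of 10 were too low to test and Gp6 had no more than 3 counts in any library. Leukocyte and macrophage markers summed to between 197 and 263 CPM, with 1 of 12 called higher (Mrc1) and 2 lower (C1qa and C1qb), and none with both trends removed or without fructose replicate 2. None of the 9 fibroblast markers was called at an adjusted p-value under 0.05, but with both trends removed Dcn, named after its value was seen, was called lower (-0.48, edgeR adjusted p = 0.0032). The brown adipocyte markers Ucp1 and Cidea were abundant in every library, at no less than 9609.7 and 3238 CPM. Of the 10 brown adipocyte markers 2 were called higher, Elovl3 (0.79) and Ppargc1a (1.16), and 2 lower, Adipoq (-0.28) and Cox8b (-0.44). Elovl3 and Ppargc1a were still called with both trends removed (0.98 and 0.72) and Adipoq and Cox8b were not (-0.08 and 0.11), while Cidea was called higher (0.38) and Fabp4, named after its value was seen, lower (-0.38).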

How the data were processed

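RNA-seq was performed on BAT of E18.5 fetuses, with 2 control and 2 fructose libraries. Per the submitters' processing notes and the methods, the authors filtered reads with fastp, mapped them to mm10 with Bowtie2 (2.0.0.5) and TopHat2 (2.0.0), assembled transcripts with StringTie (2.2.0), merged them with Cuffmerge and deposited raw counts per gene, without normalization or pooling. The counting tool, and how it treated strand and reads matching more than 1 gene, are not given in the sources used here. Counts in the joint table were equal to those in the 4 single-library tables. Symbols, coordinates, exonic lengths and GC content came from GENCODE M21 (GRCm38, the build named mm10), in which 43 of the 22298 genes had no match.

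Genes kept by filterByExpr were tested with edgeR 4.0.16 (R 4.3.3, TMM, quasi-likelihood test, two-sided, Benjamini-Hochberg adjustment, no covariate). The 95% intervals use the moderated degrees of freedom. Alternatives were DESeq2 1.42.0, other scalings and filters, a block for the replicate number, removal of length and GC trends (lowess, span 0.3, as offsets) and each library left out. The members and lists were chosen with earlier results of these data known. Named genes were all members and, from each list, the 3 with the highest level per length and up to 6 called genes, highest level first, not all of which are described. Ahsp was not matched, and protein sequences were not analysed here. Totals per library set the counting precision, and intervals and limits at 0 counts cover counting error or the spread between these libraries only.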

Additional observations from a re-analysis of the deposited data

How the results depend on the processing

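The endothelial marker genes called numbered 2 with TMM, and 1 to 6 when a library was left out, a fit that assumes the lone library varies like the other group. They were 6 without control replicate 1 (Flt1, Cldn5, Pecam1, Kdr, Tek and Eng), 1 without fructose replicate 2 (Cldn5) and 1 with both trends removed at the longest transcript length (Emcn). Their median log2 fold change of -0.08 was -0.023 with library size only, -0.18 with the length trend removed (-0.18 with the longest transcript), -0.0013 with the GC trend removed, -0.064 with both removed (-0.063 with the replicate block) and between -0.15 and -0.050 with a library left out. Direction turned for genes that were not called. Cdh5 was at 0.0068 with library size only, 0.0081 with the GC trend removed and 0.031 with both removed (0.031 with the block). Kdr was at -0.032 with the length trend removed, -0.015 with both removed (-0.014 with the block), and at -0.037 and -0.022 in these fits with the longest transcript, while it was called with library size only (0.28, edgeR adjusted p = 0.022) and at a minimum of 10 counts in every library (0.23, edgeR adjusted p = 0.046). Vwf was at 0.083 with the GC trend removed and 0.073 without control replicate 2 (-0.20 to 0.073 with any library left out). Why these values moved was not tested beyond the trends themselves. Without control replicate 1, more genes were called over the whole table as well as among the endothelial marker genes. Without fructose replicate 2, fewer were called in both, as with both trends removed at the longest transcript length. The totals are given below. The changes had the same direction in the list and in the whole table, but not always the same proportion. Whether they are particular to the list was not tested.

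Of all tested genes 3380 were called, 2223 with the GC trend removed, 2162 with the length trend removed at the longest transcript length, 1553 with both removed (1942 with the block, 1171 with the longest transcript), and between 1692 (without fructose replicate 2) and 3925 (without control replicate 1) with a library left out. Scaled by library size only, the median of all tested genes was 0.06 and 72.3% of calls were higher, against 59.2% with TMM, 49.1% with the GC trend removed, 45.1% with both removed and 71.3% without fructose replicate 2. Of the calls with TMM, 908 were made in the same direction with both trends removed. Of the 90 tested vascular genes 26 were called, 12 with the length trend removed, 15 with the GC trend removed, 9 with both (11 with the block), 15 and 5 in the length and the combined fit with the longest transcript, and 11 (without fructose replicate 2) to 32 with a library left out. Without fructose replicate 2, called genes fell from 2 to 1 in the angiopoietin and in the endoglin and ALK1 list and from 4 to 2 among brown adipocyte markers. Without either control replicate they rose from 2 to 4 among transcription factors and from 1 to 2 among arterial and Notch genes, and they were 4 in place of 2 among mural markers without control replicate 1 or fructose replicate 1. DESeq2 called the same 2 endothelial marker genes, Flt1 and Cldn5.

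The replicate numbers share no stated litter or day. Same-numbered libraries did not deviate together (correlation -0.027 across genes), and with the replicate number as a block 2 endothelial marker genes and 3558 genes in all were called. For genes that were not called, the 95% intervals give the differences that 2 libraries per group could not resolve.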
